A study of Mus musculus with 19 samples.

Results

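Olfr461 is a mouse olfactory receptor gene, 1 of the 26221 rows of the authors' normalized table and 1 of its 1125 rows whose symbol starts with Olfr. It was chosen from its measured levels: among those 1125 rows its mean normalized count ranked 1 in both kinds of eGFP-positive nasal epithelial cells and 636 in eGFP-negative epithelial cells. Its levels, ranks and shares are therefore given as a description, with no test. Tests were kept to genes that the choice did not use.

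The 19 libraries are bulk RNA-seq of cells sorted from the noses of mice that carry the transgene Tg(RP23-268L19-EGFP)2Mik on a B6.Cg background, a bacterial artificial chromosome that expresses eGFP under regulatory sequence of Chat, the gene of the acetylcholine-synthesizing enzyme. All groups carry this transgene, and the labels name no treatment, age or sex. Cells were freed with dispase followed by papain, and live CD45-negative, EpCAM-positive cells were sorted into eGFP-positive cells of low forward and side scatter (FSClow, n = 9), eGFP-positive cells of high scatter (FSChi, n = 5), and eGFP-negative cells (EpCAM, n = 5). The labels call the eGFP-positive cells brush cells, a name for chemosensory epithelial cells related to tuft cells. Nothing in them ties a library to a mouse, so the p-values reflect only how much these libraries vary, which may be technical variation.

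Library totals in the count table ran from 1348428 (FSChi replicate 2) to 7477695 counts (FSChi replicate 3). The table columns of 14 libraries matched their own deposited single-library file best, and 5 did not. The column of FSChi replicate 3 matched the file of replicate 4, the column of replicate 4 matched the file of replicate 5, the column of replicate 5 matched no file closely, and the columns of EpCAM replicates 1 and 2 matched each other's file. The file of FSChi replicate 3 was nearly empty, with 6807 expected counts. The best file of every such column was one of its own group, though at a Spearman correlation of only 0.872 for FSChi replicate 5. Group values are therefore given, with values restricted to the 14 matching libraries where they bear on Olfr461. The tuft and brush cell markers, which include Chat, Trpm5 and Pou2f3, summed to 8053 to 12538 CPM (counts scaled per 1e6, with TMM library sizes) in FSClow, 6740 to 10908 in FSChi and 11.04 to 23.8 in EpCAM.

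Olfactory receptors are G protein-coupled receptors. In the main olfactory epithelium each olfactory sensory neuron expresses a single receptor allele, silences the others and signals through the G protein alpha subunit Gnal, adenylyl cyclase Adcy3 and the cyclic nucleotide-gated channel of Cnga2, Cnga4 and Cngb1. Brush and tuft cells are known instead for the taste cascade, in which bitter, sweet or umami receptors act through Gnat3, Plcb2, Itpr3 and the cation channel Trpm5. Some olfactory receptors are also known from tissues other than the olfactory epithelium.

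Olfr461 (Entrez Gene 258380) lies on the minus strand of mouse chromosome 6. GENCODE M21 on GRCm38 annotates it from 40542171 to 40555050 with 4 transcripts, the longest of 4292 nucleotides in 2 exons, with a non-coding exon at 40554989 to 40555050 upstream of the exon that holds the whole coding sequence. RefSeq annotates only 40544036 to 40544977, the 942 coding bases of a protein of 313 residues. No other gene overlaps the GENCODE interval. The nearest other receptor gene, Olfr460, lies 24.2 kb away on the plus strand, and its coding sequence is identical to that of Olfr461 in 725 of 945 aligned columns (76.7%). The stretch below is shown because reads can only be assigned to 1 of these genes where they differ: it spans bases 302 to 421 of the Olfr461 coding sequence, around the codons of the conserved aspartate-arginine-tyrosine triplet that starts at base 358 and is typical of this family. It is read 5′ to 3′ on each gene's own strand from GENCODE M21 transcripts (GRCm38), and capitals mark the 34 bases of 120 that differ.
Olfr461, chr6:40544557-40544676, minus strand: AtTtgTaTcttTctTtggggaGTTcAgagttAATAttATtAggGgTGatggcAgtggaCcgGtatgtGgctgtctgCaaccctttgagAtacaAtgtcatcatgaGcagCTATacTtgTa
Olfr460, chr6:40571692-40571811, plus strand: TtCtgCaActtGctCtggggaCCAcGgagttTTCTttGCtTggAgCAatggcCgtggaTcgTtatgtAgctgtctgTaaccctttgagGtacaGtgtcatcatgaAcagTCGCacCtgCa
Over the whole coding sequence, 23 of its 893 words of 50 bases also occur in transcripts of another gene, Olfr460. Of its 918 words of 25 bases, 60 occur in transcripts of Olfr460, Olfr459 or Olfr1020. The other words of each length occur in no transcript of another gene.

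Olfr461 was present in all 14 eGFP-positive libraries and in 1 of 5 eGFP-negative ones. In FSClow its counts were 44, 112, 110, 104, 85, 40, 54, 229 and 78 in replicates 1 to 9, or 12.1 CPM in the lowest library, 29.8 CPM in the median and 46.1 CPM in the highest. In FSChi its counts were 213, 123, 332, 175 and 234 in replicates 1 to 5, which are 50.1, 98.8, 44.6, 32.7 and 82.9 CPM. In EpCAM it had 5 counts in replicate 1 (0.982 CPM) and none in replicates 2 to 5. Every eGFP-positive library was thus above every EpCAM library, while FSClow and FSChi overlapped.

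The mean level was 29.7 ± 10.5 CPM (SD, n = 9) in FSClow, 61.8 ± 27.8 CPM (SD, n = 5) in FSChi and 0.196 ± 0.439 CPM (SD, n = 5) in EpCAM. Of the FSClow libraries 6 lay below every FSChi library and 3 within the FSChi range, and 3 FSChi libraries lay above every FSClow library. The ratio of the FSChi to the FSClow mean was 2.08. Pooled over libraries without TMM scaling, Olfr461 took 30.7 counts per 1e6 in FSClow (exact 95% Poisson interval 28.7 to 32.8), 49.6 in FSChi (46.7 to 52.6) and 0.183 in EpCAM (0.0593 to 0.426). The pooled ratio to EpCAM was 168 (counting interval 71.8 to 519) for FSClow and 272 (116 to 838) for FSChi. These intervals cover counting error only. In bulk samples, fewer cells with the transcript and less transcript per cell cannot be told apart.

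**Figure D1:**
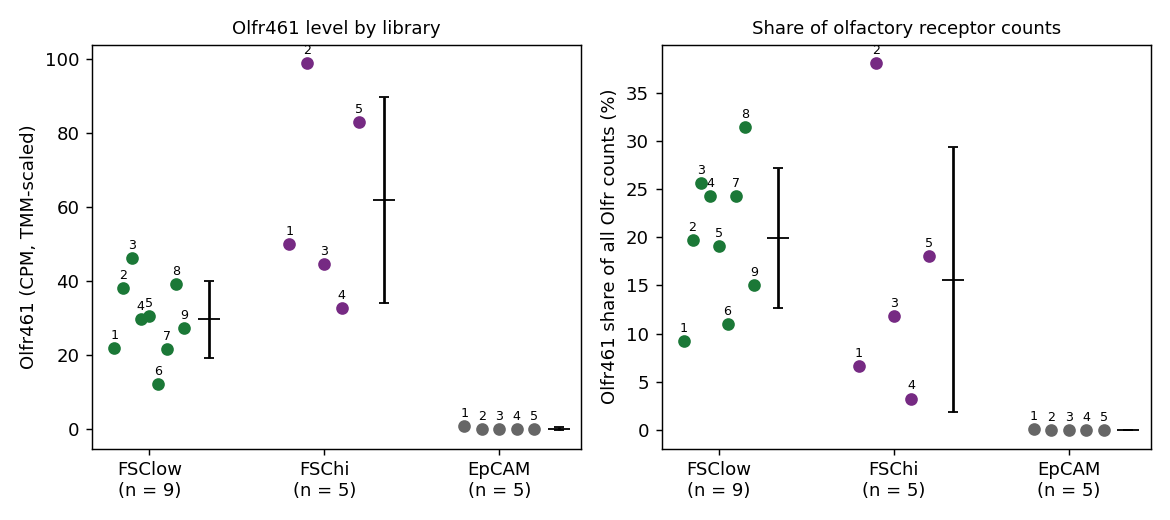
Olfr461 in each library as CPM (left axis, TMM-scaled) and as percent of all counts on Olfr rows (right axis), with replicate numbers beside the points and the group mean ± SD as black bars. All FSClow and FSChi points lie above the EpCAM points, FSClow spans 12.1 to 46.1 CPM and FSChi 32.7 to 98.8 CPM, and the highest level and the highest share both belong to FSChi replicate 2.

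The EpCAM library with Olfr461 counts, replicate 1, also held 10 of the 12 counts of the bitter receptor gene Tas2r108 in that group and 11 counts of Trpm5. EpCAM replicate 5 held more Trpm5 (29 counts) and Gnat3 (39 against 14 counts), and no Olfr461 count. Whether eGFP-positive cells carried over in the sort contributed the 5 Olfr461 counts was not tested.

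The single-library files gave the same order on a scale per length. Olfr461 had 37.8 ± 16.4 TPM (transcripts per 1e6, a unit per length; SD, n = 9) in FSClow and 66.1 ± 32.8 TPM (SD, n = 4) in FSChi without the nearly empty file. In EpCAM it had 0.95 TPM in the file of replicate 2, whose table column is the 1 that matches replicate 1, and 0 in the others. The files give the gene a length of 942 bases, the coding sequence alone, and a mean of 51.0 expected counts per FSClow library, against 95.1 counts in the table. The median model length of the Olfr genes in the files was 945 bases.

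Among olfactory receptor rows of the normalized table, Olfr461 had the highest mean in FSClow. Its mean normalized count there was 91.1 ± 32.0 (SD, n = 9), ahead of Olfr402 at 38.6 ± 18.3, Olfr390 at 35.5 ± 17.6, Olfr69 at 18.3 ± 55.05 and Olfr937 at 11.8 ± 7.55. It ranked 1 in 8 of 9 FSClow libraries, narrowly in replicate 6, at 37.9 against 33.2 for Olfr390. The exception was replicate 1, where Olfr461 at 62.6 ranked 3, Olfr402 was at 65.5 and Olfr69, absent from the other FSClow libraries, reached 165. In the single-library files Olfr402, Olfr390 and Olfr937 had 0 TPM in FSClow, so that Olfr69 at 5.87 TPM came next after Olfr461. Olfr402 had 2.01 to 22.8 CPM in FSClow, 8.20 to 13.6 in FSChi and 4.71 to 9.19 in EpCAM, so it was detected in every library of each group, whereas Olfr461 was detected in 1 of 5 EpCAM libraries.

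In FSChi, Olfr461 led by its mean but not in each library. Its mean normalized count was 199 ± 88.5 (SD, n = 5), against 82.6 ± 113 for Olfr672, 59.5 ± 133 for Olfr549, 51.3 ± 114 for Olfr1511 and 45.1 ± 68.7 for Olfr247. Each of these 4 was above 0 in 2 of the 5 libraries, whereas Olfr461 was present in all 5. It ranked 1 in replicates 2 and 5, 2 in replicate 3, 3 in replicate 1 and 9 in replicate 4. Olfr549 led replicate 1 at 297, and Olfr672 led replicates 3 and 4 at 207 and 206. By mean TPM, Olfr461 ranked 1 in FSChi without the nearly empty file, with Olfr672 next at 36.2 TPM, and 7 with it.

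In EpCAM the receptors were many and uneven, and Olfr461 was nearly absent from them. The highest rows were Olfr672 (mean normalized count 102 ± 123), Olfr610 (66.1 ± 54.8), Olfr115 (63.7 ± 62.4), Olfr1176 (53.8 ± 70.3) and Olfr552 (52.0 ± 62.7), each SD over n = 5. Of the Olfr rows 635 had a higher mean than Olfr461 and 182 had none. In FSClow and FSChi no other Olfr row had a higher mean CPM than Olfr461, nor did any row of the trace amine-associated receptor (Taar), vomeronasal (Vmn1r and Vmn2r), formyl peptide receptor (Fpr) or Ms4a families, on a scale that is not per length. Of the bitter receptor rows (Tas2r) 1 was higher in FSClow and 3 in FSChi, led by Tas2r108 at 96.9 and 545 CPM. Of the sweet and umami receptor rows (Tas1r) 1 was higher in FSChi, Tas1r3 at 72.0 CPM.

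**Figure D2:**
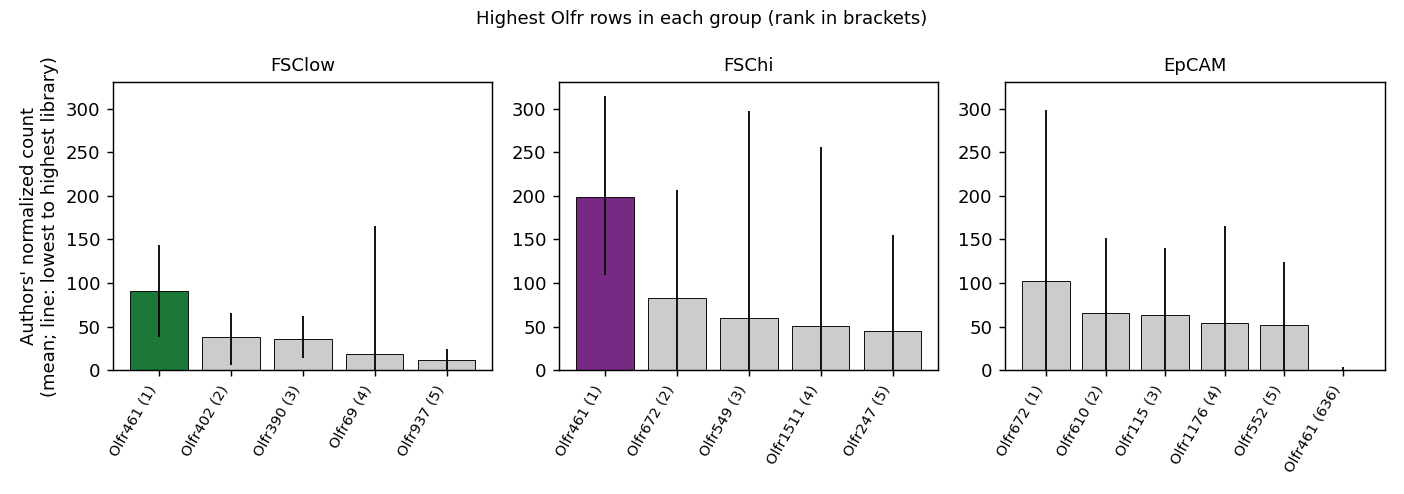
Mean normalized counts of the Olfr rows with the highest means in FSClow, FSChi and EpCAM (vertical lines run from the lowest to the highest library, ranks among 1125 rows in brackets), with Olfr461 in colour. Olfr461 leads in FSClow (91.1) and FSChi (199) with no library at 0, while in EpCAM it ranks 636 and the leading rows range widely between libraries.

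Olfr461 made up 3.27% to 38.1% of the olfactory receptor counts in eGFP-positive libraries. Its share of all counts on Olfr rows in FSClow was 9.21% in the lowest library, 19.7% in the median and 31.5% in the highest. In FSChi the shares of replicates 1 to 5 were 6.69%, 38.1%, 11.8%, 3.27% and 18.1%. In EpCAM the share was 0.0851% in replicate 1 and 0 elsewhere. The share overlapped between the gates, with means of 19.97% ± 7.26 (SD, n = 9) in FSClow and 15.6% ± 13.8 (SD, n = 5) in FSChi. The mean FSClow share was 43.8% from the expected counts of the single-library files, and the FSChi share was 8.30% with counts pooled over libraries.

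The summed level of the other receptors was highest in EpCAM, where Olfr461 was lowest. All other Olfr rows together summed to 126 ± 45.7 CPM (SD, n = 9) in FSClow, 507 ± 322 CPM (SD, n = 5) in FSChi and 1262 ± 400 CPM (SD, n = 5) in EpCAM. Olfactory marker protein (Omp), made by mature olfactory sensory neurons, ran from 0 to 46.4 CPM in FSClow and from 1550 to 2910 CPM in EpCAM. In FSChi it was at 1796, 1.61, 749, 1748 and 729 CPM in replicates 1 to 5. FSChi replicates 1 and 4, the highest in Omp, had the highest sums of other receptors (698 and 967 CPM). Their Olfr461 shares were the lowest of that group, but the share has the other receptors in its denominator and falls as they rise. The level of Olfr461 was 50.1 and 32.7 CPM in replicates 1 and 4, and 98.8, 44.6 and 82.9 CPM in replicates 2, 3 and 5.

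FSChi replicate 2 stood apart from its group. It had 2 counts of Omp, no count of Cnga2 or of the chloride channel gene Ano2, and 161 CPM of other Olfr rows, within the FSClow range of 67.6 to 215 CPM. In that library Olfr461 was at 98.8 CPM, the highest of all 19. FSClow replicate 5, with no Omp count, had 30.5 CPM of Olfr461, and FSClow replicate 9, with the most Omp of its group, had 27.4 CPM. The summed olfactory sensory neuron markers were 20.9 CPM in FSChi replicate 2, against a group maximum of 3589. Replicate 2 was also the shallowest library. Without it, the mean of FSChi was 52.6 CPM and its mean share 9.96%, and Olfr461 still ranked 1 by its mean.

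**Figure D3:**
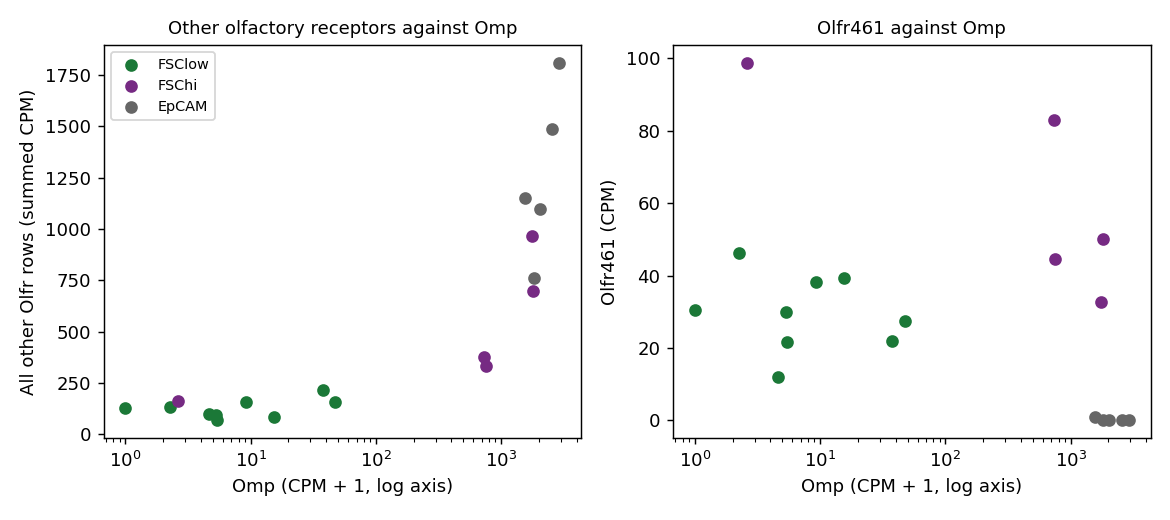
Summed CPM of all Olfr rows other than Olfr461 (left) and CPM of Olfr461 (right) against Omp, the olfactory sensory neuron marker (CPM + 1, log axis), 1 point per library. The other receptors are at 161 CPM in the low-Omp FSChi library and at 334 to 967 CPM in the FSChi libraries with Omp, whereas Olfr461 is at 0.982 CPM or below in all EpCAM libraries and at its highest, 98.8 CPM, in the FSChi library with almost no Omp.

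The genes through which an olfactory receptor signals in neurons were mostly lower in both eGFP-positive groups than in EpCAM and higher in FSChi than in FSClow. Of 18 odorant transduction genes, 17 were lower in FSClow than in EpCAM and none higher (edgeR, adjusted p under 0.05), against 23.1% of all 13340 tested genes lower and 45.1% called in either direction. Their median log2 fold change was -5.67, against 0.05 over all genes. In FSChi against EpCAM 10 were lower and 1 higher, with 12.2% of all genes lower, 13.5% higher and 25.6% called, and the median was -1.42 against -0.02. In FSChi against FSClow 17 were higher and none lower, with 15.5% of all genes higher, 9.3% lower and 24.8% called, and the median was 3.89 against -0.01. Over the matching libraries alone 6 were called in FSChi against EpCAM, and with only the compared groups in the fit 11 were called in FSChi against FSClow. Members near 0 in FSClow, such as Cnga2, Ano2 and Rtp2, passed the filter on low counts through the other groups, so these counts partly reflect the filter. The olfactory sensory neuron markers moved in the same directions, with 12 of 12 lower in FSClow than in EpCAM, 8 of 12 lower in FSChi than in EpCAM and 12 of 12 higher in FSChi than in FSClow; their part in the transduction counts was not tested.

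Cnga2, the gene of the main channel subunit, had 0 to 11 counts in FSClow libraries, with none in 5 of the 9. In FSChi it had 218, 0, 597, 623 and 291 counts in replicates 1 to 5, and in EpCAM 918 to 2703. FSClow libraries were thus all far below EpCAM, and FSChi split into 4 libraries with Cnga2 and 1 without. Its log2 fold change was -8.95 in FSClow against EpCAM and 6.96 in FSChi against FSClow, sizes that rest on few FSClow counts. Cnga2 passed the filter on low counts through FSChi and EpCAM, so no test of it is given.
Gnal, the olfactory G protein alpha subunit gene, was at 10.5 to 29.7 CPM in FSClow, 392 to 860 CPM in EpCAM, and 266, 12.9, 133, 263 and 193 CPM in FSChi replicates 1 to 5. Adcy3 ran from 3.02 to 8.44 CPM in FSClow and from 38.3 to 130 CPM in EpCAM. Both fell in FSClow against EpCAM, with log2 fold changes of -4.72 ± 0.40 and -4.34 ± 0.39 (edgeR, adjusted p = 2.3e-09 and 3.9e-09). Transcripts of Gnal and Adcy3 were thus low but present in every FSClow library. The chaperone genes Rtp1 and Rtp2, which help olfactory receptors reach the cell surface, were at mean levels of 1.64 and 0.0391 CPM in FSClow, 33.1 and 16.7 CPM in FSChi and 234 and 86.1 CPM in EpCAM. Rtp2 passed the filter on low counts through FSChi and EpCAM, so no test of it is given. Gng13, a G protein gamma subunit gene used in both olfactory and taste cells, was the member higher in FSChi than in EpCAM, by 2.13 ± 0.39 on the log2 scale (edgeR, adjusted p = 0.00025). This direction turned on the TPM scale while the nearly empty file was included (-0.34).

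Of 12 taste transduction genes, of which Gnb1 and Gng13 are also odorant transduction genes, 11 were in the table and tested: 4 were higher and 2 lower in FSClow than in EpCAM (22% and 23.1% of all genes), 9 higher and none lower in FSChi than in EpCAM (13.5% and 12.2%), and 8 higher and none lower in FSChi than in FSClow (15.5% and 9.3%). Their median log2 fold changes were 0.53, 8.19 and 2.00. Gnat3, Plcb2, Trpm5 and Tas1r3, the 4 higher in FSClow, passed the filter on low counts through eGFP-positive libraries. Rgs21 and Calhm1 passed it through the FSChi libraries. The counts of genes higher than in EpCAM are thus a description, and those between the gates partly reflect the filter. Trpm5 was at 967 to 2398 CPM in FSClow, 623 to 1539 CPM in FSChi and 0 to 4.37 CPM in EpCAM. Plcb2, the phospholipase gene, was at 139 to 243 CPM in FSClow, 129 to 404 CPM in FSChi and 0 to 2.41 CPM in EpCAM. Both overlapped between the gates, and neither passed the test there, with log2 differences of FSChi minus FSClow of -0.56 ± 0.45 for Trpm5 and 0.36 ± 0.35 for Plcb2 (edgeR, adjusted p = 0.40 and 0.50).
Gnb3, a G protein beta subunit gene, separated the gates instead. It was at 0 to 14.7 CPM in FSClow, 679 to 3775 CPM in FSChi and 1.43 to 16.3 CPM in EpCAM, and rose in FSChi against FSClow by 8.91 ± 0.73 on the log2 scale (edgeR, adjusted p = 5.2e-08). Gnat3 was at 98.0 to 258 CPM in FSClow, 755 to 3144 CPM in FSChi and 0 to 5.87 CPM in EpCAM, and rose in FSChi against FSClow by 3.61 ± 0.58 (edgeR, adjusted p = 0.00011). FSChi replicate 2 had 2398 CPM of Gnb3 and 2600 CPM of Gnat3.

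**Figure D4:**
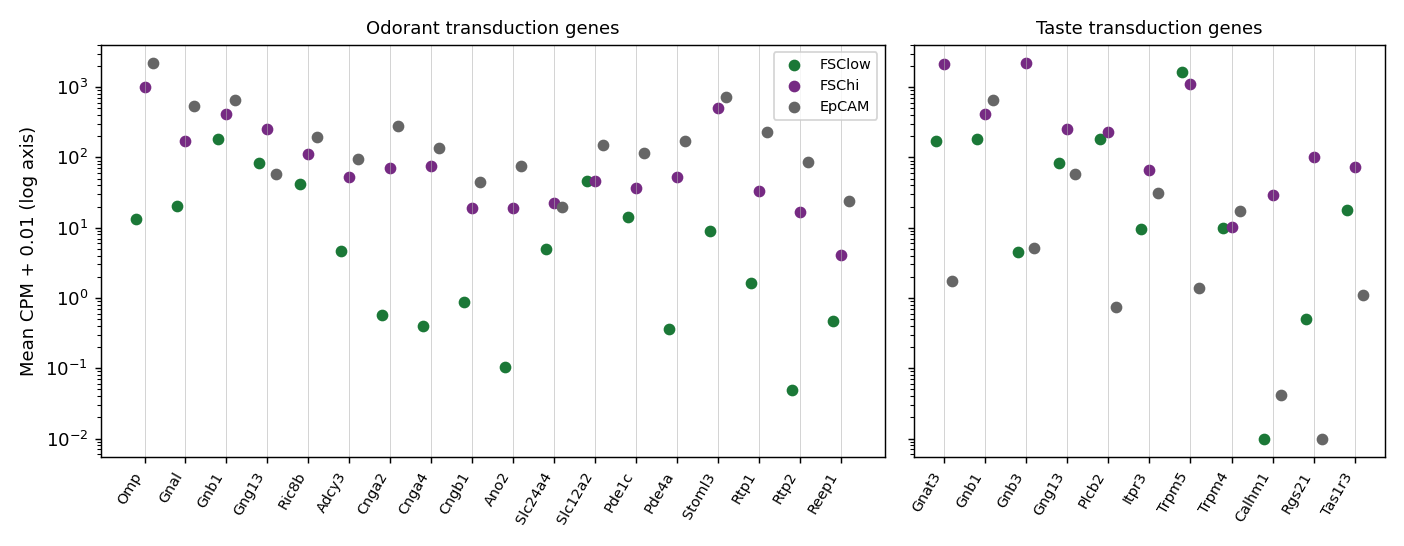
Mean CPM + 0.01 (log axis) of 18 odorant transduction genes (left) and the 11 measured taste transduction genes (right) in FSClow, FSChi and EpCAM. Cnga2, Ano2 and Rtp2 are below 1 CPM in FSClow. Trpm5 and Plcb2 are high in both eGFP-positive groups and at 1.37 and 0.726 CPM in EpCAM.

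Regulators of olfactory receptor choice were called in both directions. Of 19, 3 were higher and 9 lower in FSClow than in EpCAM (22% and 23.1% of all genes), 1 higher and 7 lower in FSChi than in EpCAM (13.5% and 12.2%), and 7 higher and 4 lower in FSChi than in FSClow (15.5% and 9.3%), with median log2 fold changes of -0.64, -0.79 and 0.02. The transcription factor gene Lhx2, needed for receptor choice in neurons, averaged 0.743 CPM in FSClow, 13.5 CPM in FSChi and 42.9 CPM in EpCAM. Ebf1 averaged 0.218, 34.4 and 169 CPM in the same order. Lhx2 and Ebf1, near 0 in FSClow, passed the filter on low counts through FSChi and EpCAM. No test of them is given, and the counts above partly reflect the filter. The 3 members higher in FSClow than in EpCAM were Cbx5, Bptf and Ehmt2. Cbx5, a heterochromatin protein gene, averaged 147 CPM in FSClow, 68.5 CPM in FSChi and 33.2 CPM in EpCAM, and rose in FSClow against EpCAM by 2.15 ± 0.25 (edgeR, adjusted p = 1.2e-07). Bptf, a chromatin remodeller, and Ehmt2, a histone methyltransferase, rose by 1.25 ± 0.19 and 0.89 ± 0.26 (edgeR, adjusted p = 9.5e-06 and 0.0064). Kdm1a, a histone demethylase that neurons use before choice, did not pass the test, at 22.2, 22.5 and 28.8 CPM.

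Olfr461 lies among bitter taste receptor genes. The 12 nearest RefSeq genes, 6 on each side, are Dennd11, Wee2, Ssbp1, Tas2r137, Tas2r108 and Prss37 at lower coordinates and Olfr460, Clec5a, Tas2r138, Mgam, Mgam2-ps and Moxd2 at higher ones. Of these 11 were in the count table and 7 passed the filter on low counts; 6 of the 7 were higher in each eGFP-positive group than in EpCAM, none was lower, and 3 were higher in FSChi than in FSClow. Against 22% of all genes higher in FSClow and 13.5% in FSChi, this count is a description. Dennd11, Tas2r137, Tas2r108, Prss37 and Tas2r138 passed the filter through eGFP-positive libraries, so their higher calls against EpCAM partly reflect the filter.
Tas2r108, 49.6 kb from Olfr461, had 38.2 CPM in the lowest FSClow library, 111 CPM in the median and 154 CPM in the highest, and 294, 697, 254, 366 and 1114 CPM in FSChi replicates 1 to 5. The gates did not overlap, and it rose by 2.49 ± 0.43 on the log2 scale in FSChi against FSClow (edgeR, adjusted p = 0.00017). In EpCAM it had 10 and 2 counts in replicates 1 and 4 and none elsewhere.
Tas2r138, on the other side at 67.3 kb, had 413 pooled counts in FSClow, 2060 in FSChi and none in EpCAM, so, with EpCAM set to a floor of 3 counts over the group, it was at least 135-fold and at least 866-fold higher there. Such floors cover counting error in EpCAM only and take the counts of the other group as exact. Between the gates it rose by 2.95 ± 0.34 (edgeR, adjusted p = 2.7e-06). Tas2r137, the third of the neighbouring bitter receptors, had 31, 172 and 2 pooled counts in FSClow, FSChi and EpCAM. It passed the filter through FSChi, so no test of it is given. Olfr461 itself differed between the gates by a mean ratio of 2.08, given beside these as a description. On the TPM scale with the nearly empty file the calls of Tas2r108 and Tas2r138 between the gates, that of Gnat3 and that of Ssbp1 in FSChi against EpCAM ended; without that file, a choice made after seeing the data, they held.
Prss37, the nearest tested neighbour at 24.5 kb and known as a testis protein in mice, had 4 to 36 counts in every FSClow library, 19 to 52 in every FSChi library and 1 count in all of EpCAM. Its pooled ratio to EpCAM was 132 (counting interval 23.2 to 5238) in FSClow and 216 (38.2 to 8565) in FSChi, and between the gates it did not pass the test, with a log2 difference of 1.01 ± 0.49 (edgeR, adjusted p = 0.14). The single-library files held little of it, at 0.811 ± 1.57 TPM in FSClow (SD, n = 9), 0.433 ± 0.697 TPM in FSChi (SD, n = 4, without the nearly empty file) and listed at 0 in EpCAM, with the means of the gates in the opposite order and their libraries overlapping.
The receptor neighbour Olfr460 had 14 counts in 6 FSClow libraries, 15 in 3 FSChi libraries and none in EpCAM. Of the FSChi counts 7 were in replicate 2. With EpCAM set to the same floor the ratios were 4.58 and 6.30, which take these few counts as exact. On the scale per length it had 0.397 TPM in FSClow and 2.29 TPM in FSChi, against 37.8 and 66.1 TPM for Olfr461. Olfr460 shares stretches of sequence with Olfr461, so their reads may not all be separable, which was not tested. Clec5a, a lectin receptor gene of myeloid cells, had 18, 17 and 0 pooled counts, and Mgam, the maltase-glucoamylase gene, had 14, 12 and 11. Moxd2 had none in any group.
Ssbp1, a mitochondrial single-stranded DNA-binding protein gene at 62.2 kb, was present in all groups, at means of 157, 120 and 26.2 CPM in FSClow, FSChi and EpCAM. It was higher than in EpCAM by 2.58 ± 0.22 in FSClow and 2.19 ± 0.23 in FSChi on the log2 scale (edgeR, adjusted p = 1.3e-09 and 1.2e-07). Dennd11 averaged 7.20, 6.89 and 1.48 CPM in FSClow, FSChi and EpCAM. It passed the filter on low counts through eGFP-positive libraries, so no test of it against EpCAM is given. Wee2, an oocyte kinase gene, did not pass the test against EpCAM in FSClow or FSChi. Its log2 fold changes were 1.29 ± 0.64 and 1.89 ± 0.71 (edgeR, adjusted p = 0.11 and 0.051). In FSChi it passed under 9 of the alternatives, DESeq2 and the replicate block among them. The Dennd11 and Wee2 intervals overlap in RefSeq, so their reads may not be separable.

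**Figure D5:**
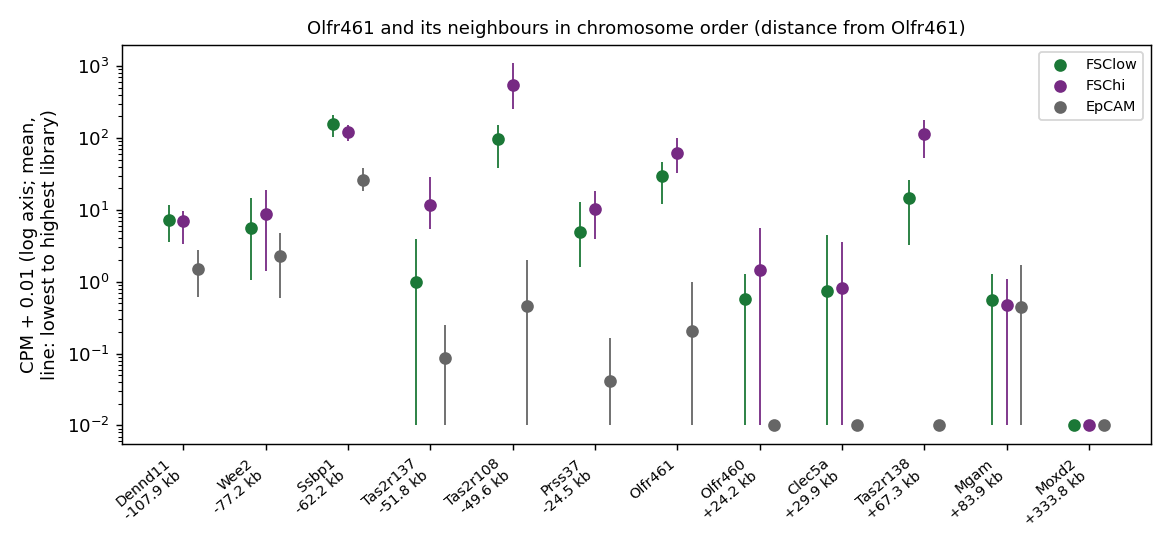
Mean CPM + 0.01 (log axis, vertical lines from the lowest to the highest library) of Olfr461 and its 11 measured neighbours in chromosome order, with the distance from Olfr461 in kb under each name. Tas2r137, Tas2r108, Prss37, Olfr461 and Tas2r138 are at or below 0.455 CPM in EpCAM and higher in both eGFP-positive groups, Ssbp1 is at 26.2 CPM or above in all groups, and Mgam is similar in all 3.

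Per length, Olfr461 stood between the neighbouring bitter receptors in FSClow. In the single-library files Tas2r108 had 150 ± 74.7 TPM, Olfr461 37.8 ± 16.4 TPM, Tas2r138 21.6 ± 13.3 TPM and Tas2r137 1.13 ± 1.58 TPM (SD, n = 9). In FSChi, without the nearly empty file, Tas2r108 had 504 ± 271 TPM, Tas2r138 111 ± 36.4 TPM, Olfr461 66.1 ± 32.8 TPM and Tas2r137 11.9 ± 12.1 TPM (SD, n = 4). Olfr461 and Tas2r138 overlapped within 1 SD in both gates. Of 38 taste receptor rows 9 were tested: 5 were higher and 1 lower in FSClow than in EpCAM (22% and 23.1% of all genes), and all 9 were higher in FSChi than in EpCAM (13.5%) and than in FSClow (15.5%). Tas1r1, Tas2r105, Tas2r118, Tas2r129 and Tas2r137 passed the filter on low counts through the FSChi libraries and the others through eGFP-positive libraries, so these counts reflect the filter and support nothing. The 35 Tas2r rows together summed to 117 CPM in FSClow, 1056 CPM in FSChi and 1.44 CPM in EpCAM.

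Genes most like Olfr461 in their distribution were found over the 19 libraries, by the overlap of the shares of each gene's total CPM held by each library (1 for identical distributions). Olfr461 held 46.3% of its summed CPM in FSClow, 53.6% in FSChi and 0.170% in EpCAM. The closest were the sialyltransferase gene St6gal2 (overlap 0.903), the kinase gene Matk (0.887), Cd300lf (0.883), Arhgap8 (0.869), Anxa4 (0.865), Cd300ld4 (0.856), Cap1 (0.855), Cd300ld3 (0.855), Cd300ld2 (0.855) and Pstpip1 (0.853), against a median of 0.615 over 13339 genes. St6gal2 averaged 13.6 CPM in FSClow, 30.2 CPM in FSChi and 0 in EpCAM, and Matk 158, 373 and 0.948 CPM. Cd300ld2, Cd300ld3 and Cd300ld4 are related gene copies that may share reads. By Pearson correlation of log2(CPM + 1), given without a test since these libraries share groups and depth, 4 of these were again among the closest 10, and Tas2r108 ranked 6. By overlap, among named genes, Plcb2 ranked 21 (overlap 0.836), Prss37 59 (0.807), Tas2r108 179 (0.767), Trpm5 737 (0.720), Chat 1374 (0.698), Gnat3 4357 (0.649) and Omp 12417 (0.245).

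Of 8 listed olfactory receptors known from other tissues, none passed the filter on low counts. Olfr16 had 13 pooled counts in FSClow, 125 in FSChi, where it was found in all 5 libraries, and 54 in EpCAM. Olfr78, known from the carotid body, had 3, 1 and 102, and Olfr558 had 0, 97 and 172. Olfr1393 had 3, 1 and 1, and the other 4 were each at 5 counts or fewer in both eGFP-positive groups and at 11 to 161 counts in EpCAM.

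Markers of other cells differed between the groups as well; the background shares of higher and lower calls are 22% and 23.1% for FSClow against EpCAM, 13.5% and 12.2% for FSChi against EpCAM, and 15.5% and 9.3% for FSChi against FSClow. The tuft and brush markers numbered 10 of 10 higher in both gates than in EpCAM, with 1 higher and 3 lower in FSChi against FSClow. The sort used a reporter of Chat, a member of this list. Others, such as Gfi1b, Il25 and Ltc4s, passed the filter on low counts through eGFP-positive libraries. The 10 of 10 against EpCAM thus reflects the sort and the filter and supports nothing. Basal cell markers summed to 1.43 to 111 CPM in FSClow, 28.6 to 1756 in FSChi and 1564 to 4908 in EpCAM, with 5 of 5 and 4 of 5 lower than in EpCAM and 5 higher between the gates. Sustentacular markers summed to 247 to 633, 247 to 3278 and 2046 to 5677 CPM, with 5 and 3 of 5 lower and 2 higher. Ciliated markers summed to 8.19 to 20.9, 2.41 to 41.6 and 67.5 to 79.3 CPM, with 4 and 2 of 4 lower and 1 higher. Ionocyte markers summed to 0.992 to 10.9, 2.13 to 52.6 and 96.8 to 202 CPM, with 3 and 3 of 3 lower and 2 higher. Leukocyte markers, of which 3 of 6 were tested, summed to 134 to 182, 86.1 to 704 and 445 to 3374 CPM. Their calls were 2 higher and 1 lower, 2 higher, and 1 higher, and Cd3e was at 0 in all groups. The tested members differed in order over FSClow, FSChi and EpCAM: Lyz2 averaged 6.73, 160 and 1718 CPM and Kit 143, 111 and 26.7 CPM. Ptprc, the CD45 gene, averaged 12.5, 6.90 and 0 CPM and passed the filter through eGFP-positive libraries. Members near 0 in FSClow, such as Trp63 and Ascl3, passed the filter on low counts through other groups, so these counts partly reflect the filter. The part of these cells in the level of Olfr461 was not tested. The mean basal, ciliated, ionocyte and sustentacular sums were all highest in EpCAM, where Olfr461 was lowest.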

How the data were processed

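RNA was measured in 19 libraries of 3 groups taken from the sample labels. The authors deposited a table of counts per gene, a table of the same counts divided by size factors (a normalized signal, of which 100% came out whole within 0.01 when multiplied back), and a file per library whose columns, per the file headers, hold expected counts and TPM. The submitters' processing notes name STAR 2.4.2a, RSEM 1.2.21, featureCounts, DESeq2 and build mm10, without saying which step each served. Of 27179 count rows, 25275 took their symbol from RefSeq, 580 from the normalized table and 1324 had none.

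Counts were tested with edgeR 4.0.16 (quasi-likelihood, robust, TMM, filterByExpr by group, group as the only term, all 19 libraries) in R 4.3.3, with Benjamini-Hochberg adjustment over 13340 genes and a threshold of 0.05. The ± of a log2 fold change is its standard error. The fit was tested on simulated data. Alternatives were DESeq2 1.42.0, limma 3.58.1 on log2(TPM + 1) or log2(TPM + 0.1) with TPM of at least 1 in 4 libraries, rounded expected counts, other scalings, no filter, a replicate block, and leaving out libraries. Column and file were matched by Spearman correlation over 14981 genes with at least 50 counts.

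The text names Olfr461, the 5 highest Olfr rows per group, 6 neighbours on each side, the 10 genes most alike and the members of fixed lists. Olfr461 and these lists were chosen with earlier results of these data known. Symbols and neighbours came from RefSeq on GRCm38.p6, transcripts from GENCODE M21. Library totals ran from 1348428 to 7477695 counts, and a group with no count was set to a floor of 3 counts over the group.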

Additional observations from a re-analysis of the deposited data

Results flagged for a closer look

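Of 59 group and gene combinations tested for a library far from the rest of its group, 8 stood out, and chance flags about 1 in 20 groups of normally distributed values, a rate that does not hold for groups with most libraries at 0. For Olfr461 it was EpCAM replicate 1, at 0.982 CPM and a share of 0.0851% of Olfr counts, with the other 4 libraries at 0. In the same library Tas2r108 was at 1.96 CPM, against at most 0.312 CPM in the others. Prss37 reached 0.156 CPM in EpCAM replicate 4, a single count, with 0 elsewhere. Gnb3 was at 16.3 CPM in EpCAM replicate 5, against at most 3.53 CPM in the others, and at 14.7 CPM in FSClow replicate 2, next to 6.35 CPM. Cnga2 was at 3.87 CPM in FSClow replicate 9, the FSClow library with the most Omp, next to 0.496 CPM. Ebf1 was at 1.49 CPM in FSClow replicate 1, the library with Olfr69, next to 0.302 CPM.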

How the results depend on the processing

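Olfr461 ranked 1 of the Olfr rows in FSClow under every setting tried, and in FSChi under every setting except mean TPM with the nearly empty file, where it ranked 7. From rounded expected counts its FSClow share was 43.8% and its FSChi level 32.4 CPM, or 40.5 CPM without the nearly empty file. Its EpCAM rank was 326 by the median and 803 over matching libraries, and 524 to 895 leaving out each library. Over matching libraries alone its FSChi level was 74.5 CPM (replicates 1 and 2). Leaving out FSChi replicate 2 lowered its FSChi share to 9.96%, and pooling counts gave 8.30%.

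With log2(TPM + 1) and log2(TPM + 0.1), which include the nearly empty file, called genes numbered 3806 and 3009 in FSClow against EpCAM, and 843 and 271 in FSChi against FSClow, where odorant transduction calls were 8 and 0 and taste transduction calls 4 and 4. With a pseudocount of 0.1, FSChi against EpCAM gave 1719 calls and 7 odorant transduction calls. Without that file, chosen after seeing the data, log2(TPM + 1) gave 1976 calls between the gates, of which 15 were odorant transduction genes. Over matching libraries, FSChi against EpCAM gave 1838 calls (6 odorant transduction) and FSChi against FSClow 1754. With only the compared groups fitted, the gates differed in 2106 genes and 11 odorant transduction genes.

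Directions that turned were those of Gng13 (-0.34 and -1.01 in FSChi against EpCAM, -0.83 and -1.49 between the gates), Plcb2 (-1.41 and -2.08, and -0.24 without the file) and Wee2 (-0.35 and -1.04) with pseudocounts 1 and 0.1, and of Ssbp1 in FSChi against EpCAM (-0.081), Tas2r108 (-0.61) and Pde1c (-0.28) between the gates with 0.1. Dennd11 between the gates turned over matching libraries (0.18), and ranged from -0.23 to 0.12 leaving out each library, and Gnb3 in FSClow against EpCAM from -0.74 to 0.98; none of these passed the test.

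Replicate numbers are shared between groups. Deviations of same-numbered libraries from their group means had correlations of -0.17 to 0.37. The highest were 0.37 for number 1 in FSChi and FSClow and 0.24 for number 3 in FSChi and EpCAM. Whether same-numbered libraries share a source was not tested. With the replicate block, calls between the gates fell from 3310 to 1982, Gnb3 in FSClow against EpCAM was 0.17 and Dennd11 between the gates 0.11. The cause of these changes was not tested. Depth limits values of a few counts, such as Olfr461 in EpCAM.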
